A study of Drosophila melanogaster with 6 samples.

Results

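The baseline transcriptome of the control late larval brain of Drosophila melanogaster was described from 3 of the 6 libraries of the series, those labelled ctrl brain 4, 5 and 6. Each library was made from polyadenylated RNA of a pool of 3 brains. The brains came from female third-instar larvae aged 96 hours after egg laying and kept at 29 °C. The genotype was w; worniu-gal4, UAS-gfp-i, in which the worniu promoter drives the yeast activator Gal4 in neural stem cells, where Gal4 switches on an RNA interference construct against gfp. These larvae are thus not wild type, since the ctrl brains carry a w mutation, the driver and the construct. The pools were prepared on different days and the labels give them batch numbers 4, 5 and 6. Each batch holds 1 ctrl library, so batch and pool cannot be told apart. The 3 libraries are 1 group and no condition was compared, so no test was made, and every difference between pools is given as a description.

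The late larval brain holds dividing neural stem cells, called neuroblasts, beside their daughters, the ganglion mother cells, as well as neurons born in the larva and functional neurons kept from the embryo. Neuroblasts divide asymmetrically, keep 1 large daughter as a stem cell and pass fate determinants such as Prospero and Brat to the smaller one. Glia wrap the stem cells and neurons and form the barrier between brain and blood. The ring gland, an endocrine gland that makes the moulting hormone ecdysone, and some blood cells, trachea and fat body lie close to the brain.

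The libraries held 24700290, 26292208 and 25278697 counts in ctrl 4, 5 and 6, a like depth at which 3 counts correspond to 0.121, 0.122 and 0.117 CPM, counts scaled to library size. Of the 14150 genes in the table, 9096 (64.3%) had a mean of at least 1 CPM, and 8618 reached 1 CPM in every pool. Counts of listed genes at 1 CPM or more given below are to be set beside this 64.3% of all genes. A mean of at least 10 CPM was found for 7123 genes, at least 100 CPM for 1916, and at least 1000 CPM for 156, while 372 genes had no count in any pool. The median level was 15.1 CPM per kb of exon over the genes at 1 CPM or more, and the 95th percentile was 141 CPM per kb. Longer transcripts give more counts, so ranks, sums and shares in CPM say how many counts a gene or list held, and levels of different genes are compared per kb. In a pool of whole brains, more cells of a type and more RNA per cell cannot be told apart. Across the 9096 genes, Pearson's r of log2 CPM was 0.942 between ctrl 4 and 5, 0.969 between ctrl 4 and 6 and 0.973 between ctrl 5 and 6. These values describe these libraries, and genes are not independent replicates.

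Counts were concentrated in few genes. The 10 genes with the highest mean CPM held 9.92, 12.9 and 10.1% of all counts in ctrl 4, 5 and 6, the first 100 held 29.0, 33.3 and 28.9%, and the first 1000 held 65.0, 67.5 and 64.9%. The largest share belonged to mt:lrRNA, the large ribosomal RNA encoded by the mitochondrial genome, with 4.30% of counts in ctrl 4 (95% exact binomial interval 4.30 to 4.31), 7.56% in ctrl 5 (7.55 to 7.57) and 4.81% in ctrl 6 (4.80 to 4.82). These intervals cover counting error only and are far narrower than the difference between ctrl 5 and the other pools. All 31 mitochondrially encoded genes together held 6.10, 10.3 and 7.01% of counts, again most in ctrl 5.

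Nuclear genes at the top of the table were those that most cells use, beside several of the nervous system. The translation elongation factor gene eEF1alpha1 had 10205, 11019.9 and 9466 CPM in ctrl 4, 5 and 6, the most counts of any nuclear gene. Act5C, a cytoplasmic actin, had 5448, 5981 and 6663 CPM, and alphaTub84B, an alpha tubulin, had 5181, 5906 and 5577 CPM. Both structural genes stayed within a narrow range, with coefficients of variation (CV, the SD over the pools divided by their mean) of 10.1% and 6.53%. Others of the 20 highest were pAbp, the poly(A)-binding protein, eEF2, the polyubiquitin gene Ubi-p63E, the constitutive chaperone Hsc70-4, betaTub56D, the chromatin protein gene Df31 and the ribosomal protein genes sta and RpL7A.

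4 of the 20 genes highest in CPM stand out for their place in the nervous system. pros (3R:11328480-11407627 on the dm6 assembly, plus strand) encodes the homeodomain protein Prospero, which neuroblasts segregate to the ganglion mother cell, and was the tenth gene by mean CPM. Part of its exons overlaps those of lncRNA:CR46008. The level of pros was 4808, 4160.1 and 4551 CPM in ctrl 4, 5 and 6, a mean of 4506 ± 326 CPM (SD, n = 3), with all pools close together. fax, a gene of axon growth, had 2872, 3513 and 3688 CPM, lowest in ctrl 4. Obp44a, of the odorant-binding protein family, had 4268, 6886 and 5369.8 CPM, highest in ctrl 5, but part of its exons overlaps those of Pabp2. lncRNA:cherub (3R:11247631-11256123, minus strand), a long noncoding RNA known from neuroblast tumours, had 9650.1, 4157 and 4237 CPM. Ctrl 4 thus held over 2-fold more cherub than the other pools, a 2.32-fold range in 1 of the 5 most counted genes. Long noncoding RNAs as a class held 1.93, 1.30 and 1.20% of counts, of which cherub alone made up 0.972, 0.390 and 0.430% of all counts.

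2 nuclear entries of the 20 highest were rRNA pseudogenes. 28SrRNA-Psi:CR45859 had 1077, 7298 and 3755 CPM and 18SrRNA-Psi:CR41602 had 742, 5320.3 and 3259 CPM, both highest in ctrl 5 and lowest in ctrl 4. The 13 nuclear rRNA genes and rRNA pseudogenes together held 0.344, 2.02 and 1.23% of counts. Such copies are near-identical to each other and to the rDNA repeats, so their single values are uncertain.

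**Figure D1:**
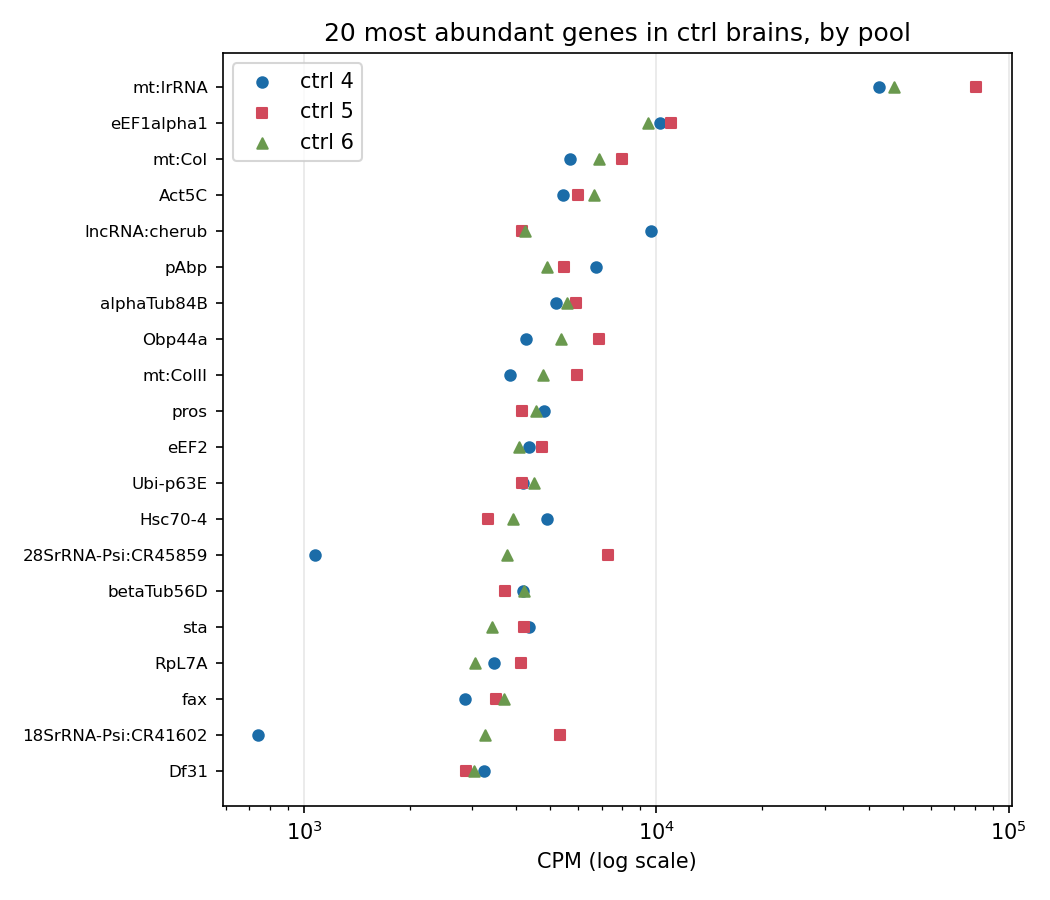
CPM on a log axis for the 20 genes with the highest mean CPM, with 1 point for each ctrl pool. mt:lrRNA lies far above the rest, the points of most nuclear genes almost coincide, cherub lies apart in ctrl 4, and both rRNA pseudogenes are lowest in ctrl 4 and highest in ctrl 5.

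Per kb of exon the picture was led by short transcripts of the ribosome. mt:lrRNA reached 42979 ± 15593 CPM per kb (SD, n = 3), and RpL41, which encodes a very small protein of the large ribosomal subunit, reached 7455 ± 3998 CPM per kb. Among the first 20 were also 2 long noncoding RNAs, lncRNA:CR40469 at 6158 ± 2243 and lncRNA:CR34335 at 3893 ± 1207 CPM per kb. Genes of cytosolic ribosomal proteins made up 11 of the first 20 genes and 69 of the first 100 by CPM per kb, and 85 of their 90 measured genes had at least 1 CPM. They held 14.0, 14.4 and 12.4% of all counts, with a median of 1779.6 CPM per kb over the 85. The 8 elongation factor genes held 2.05, 2.06 and 1.97%. 4 of the first 20 genes per kb were mitochondrially encoded, among them the cytochrome c oxidase subunit genes mt:CoIII at 6145 ± 1355 CPM per kb, mt:CoI at 4458 ± 743 and mt:CoII at 3548 ± 1096. 8 genes belonged to both lists of 20.

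Ribosomal protein genes hardly differed between pools except for the smallest of them. Only 1 of the 85 at 5 CPM or more, RpL41, had an over 2-fold range, against 5.89% of all genes at that level. RpL41 had 1804, 3852 and 1500.2 CPM in ctrl 4, 5 and 6. Other short ones leaned the same way, with RpLP2 at 2017, 2652 and 1604 CPM and RpL23 at 1438, 1922 and 1238 CPM. Transcript length moved with pool over coding genes with a mean of at least 5 CPM. Those with under 800 bp of exon were a median of 0.19 higher on the log2 scale in ctrl 5 than in ctrl 4 (499 genes). Those of 6000 bp or more had a median of -0.09 (891 genes). The part of length in the single values below was not tested.

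Transcription factors were widely detected at moderate levels. Of 343 listed and measured transcription factor genes, 311 had at least 1 CPM, and they held 3.01, 2.64 and 2.98% of all counts. Their median was 9.57 CPM per kb, below the 15.1 of all genes at 1 CPM or more, and 107 of the 311 (34.4%) lay above that median. Length was the union of all exons of a gene, which lowers the value per kb of genes with many isoforms. The longest transcript was tried as length only for the 20 highest of all genes, not for transcription factors. The 7 BTB and pipsqueak genes at 1 CPM or more had the highest family median, 20.9 CPM per kb, and bZIP genes followed with 18.2 (18 genes). The lowest medians belonged to nuclear receptors with 3.71 (20 genes) and to homeodomain genes with 4.26 CPM per kb (76 genes), although the homeodomain family includes pros, the highest of all.

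pros reached 181 ± 13.1 CPM per kb. Xbp1, a bZIP factor of the unfolded protein response, followed with 155 ± 8.31, and emc, a helix-loop-helix protein without a DNA-binding region that blocks its relatives, had 143 ± 14.5 CPM per kb. The intervals of 1 SD around these 3 means separate pros from Xbp1, but those of Xbp1 and emc overlap. Next came the BTB gene lolal at 100.1 ± 11.2, nerfin-1 at 93.4 ± 13.4, a zinc finger gene that keeps young neurons from reverting, the small Maf gene maf-S at 93.2 ± 8.86, and the bHLH gene crp at 90.7 ± 1.20 CPM per kb. The intervals of 1 SD around the last 4 means overlap, and their order within each pool was not examined. Bgb, the partner of Runt-family proteins, reached 88.5 ± 12.8 CPM per kb, exd, a cofactor of Hox proteins, reached 87.3 ± 7.58, and the activin signal transducer Smox reached 84.0 ± 4.05.

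The other 15 of the 25 highest had varied roles. Xrp1, a bZIP gene of cell stress, had 70.1 ± 6.15 CPM per kb, REPTOR-BP, a partner of the TOR-controlled factor REPTOR, had 66.5 ± 15.0, and crc, the fly ATF4, had 51.3 ± 7.87. The S-phase regulators Dp and E2f1 had 59.5 ± 5.08 and 51.9 ± 9.34 CPM per kb, and Myb had 59.1 ± 15.5. Genes of neural development among the 25 were SoxN, a Sox factor of the neuroectoderm, at 64.6 ± 12.7, br at 62.6 ± 9.89, chinmo at 55.6 ± 7.61, hth at 54.4 ± 6.15, E(spl)mgamma-HLH at 55.1 ± 6.25 and cas at 47.4 ± 27.1 CPM per kb. The remaining 3 were crol, an ecdysone-inducible zinc finger gene, at 69.4 ± 6.21, SREBP, a regulator of lipid synthesis, at 56.1 ± 5.19, and the zinc finger gene noc at 51.6 ± 8.47 CPM per kb.

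**Figure D2:**
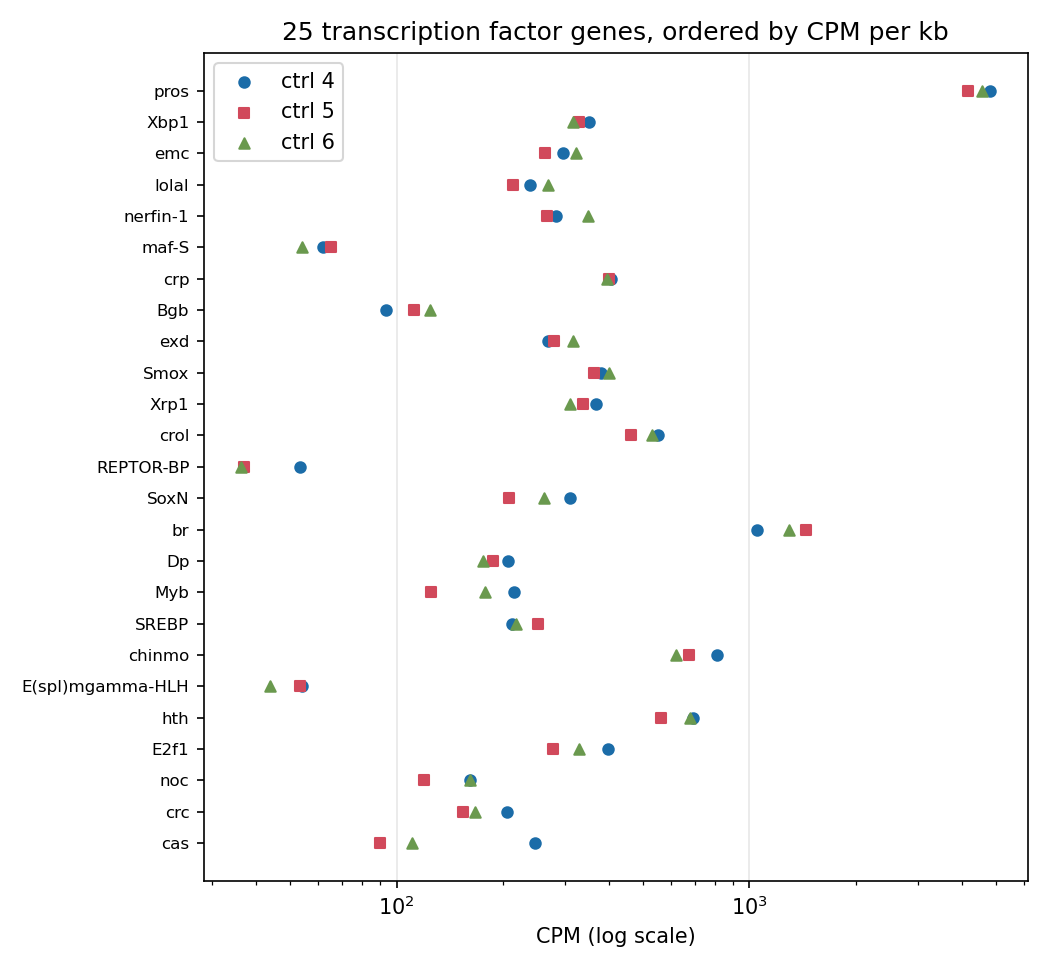
CPM on a log axis for the 25 transcription factor genes with the highest mean CPM per kb, ordered by that measure from top to bottom, with 1 point for each ctrl pool. In most genes the pools lie close together, whereas cas lies apart in ctrl 4.

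Transcription factors differed somewhat more between pools than genes in general. Of 261 at 5 CPM or more, 29 (11.1%) had an over 2-fold range between the highest and the lowest pool, against 5.89% of all 7822 genes at that level. Their median CV was 15.9%, against 11.7% over all such genes. The 2 groups were not matched for abundance, and low genes varied more. Of all genes from 5 to under 10 CPM, 22.5% had an over 2-fold range, against 2.90% from 50 to under 200 CPM. lz, a Runt-family gene of crystal cells and the eye, had 1.09, 13.8 and 0.740 CPM in ctrl 4, 5 and 6. The eye genes gl and peb had 6.43, 27.1 and 3.51 CPM for gl and 10.3, 44.5 and 6.90 CPM for peb, high in ctrl 5 as well. A different set was highest in ctrl 4. The castor gene cas, a temporal factor of neuroblasts, had 247, 89.6 and 111 CPM, and fru, a sex determination gene with many isoforms, had 214, 79.3 and 80.1 CPM. Antp of the Hox cluster had 93.7, 39.9 and 54.4 CPM, again highest in ctrl 4, and Pdp1, a bZIP gene, had 153, 70.0 and 105 CPM. Sox102F had the opposite pattern, with 23.2, 79.6 and 80.6 CPM, lowest in ctrl 4. lz, gl, peb, Sox102F, fru, Antp and Pdp1 were named here after their values were seen.

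All 28 measured genes of the neuroblast list had at least 1 CPM, with a median of 20.4 CPM per kb, and 18 of them lay above the 15.1 of all such genes. brat, a translational repressor handed to the differentiating daughter, was the highest with 122 ± 12.0 CPM per kb, although its exons overlap 3 other genes. mira, the adaptor that carries Prospero and Brat to one pole of the dividing cell, had 76.6 ± 17.6, and stau, an RNA-binding protein moved with it, had 52.7 ± 9.95 CPM per kb. The Notch target genes E(spl)mgamma-HLH and E(spl)m8-HLH had 55.1 ± 6.25 and 28.7 ± 2.82 CPM per kb.

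The genes used to recognise neuroblasts were present at modest levels in every pool. wor (2L:15423297-15425580), the zinc finger gene whose promoter drives Gal4 in these animals, had 63.5, 57.6 and 60.7 CPM in ctrl 4, 5 and 6, and its mean of 60.6 ± 2.94 CPM (SD, n = 3) was among the steadier of the list. dpn, a self-renewal gene, had 13.4, 11.6 and 8.49 CPM, and ase, which marks most central brain neuroblasts and their daughters, had 59.5, 51.0 and 38.8 CPM. Both were highest in ctrl 4 and lowest in ctrl 6. klu and grh, zinc finger and Grainyhead-family genes of self-renewal, followed the same order with 103, 74.3 and 64.3 CPM for klu and 90.8, 71.1 and 53.3 CPM for grh. mira had 319, 204 and 242 CPM and insc, which orients the spindle, had 44.0, 27.3 and 27.2 CPM, both highest in ctrl 4. 2 of the 28 members had an over 2-fold range, against 5.89% of all genes at 5 CPM or more. These were btd, at 17.5, 7.34 and 9.08 CPM, and E(spl)mdelta-HLH, at 8.64, 18.4 and 6.04 CPM.

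19 of the 28 neuroblast genes were highest in ctrl 4, as were 36.6% of all genes at 5 CPM or more. Their summed level was 4110.4, 3768 and 3756 CPM, a 1.09-fold range. brat, the largest part of that sum, went against the lean of the list with 1395, 1699 and 1588 CPM, lowest in ctrl 4. Cell cycle genes leaned the same way as the neuroblast list: 31 of 37 were highest in ctrl 4. No cell cycle gene had an over 2-fold range, against 5.89% of all genes at 5 CPM or more. The cell cycle sums were 5308, 3995 and 4187 CPM, a 1.33-fold range. The median log2 level of ctrl 4 over the mean of the pools was 0.213 for neuroblast genes and 0.251 for cell cycle genes. All 37 had at least 1 CPM with a median of 44.6 CPM per kb, the highest median of the lists apart from the 9 genes of ganglion mother cells and newborn neurons at 46.1. PCNA, the sliding clamp of DNA replication, had 238, 169 and 205 CPM and 191 ± 32.3 CPM per kb. Top2, the topoisomerase that untangles chromosomes, had 662, 508 and 499 CPM, and Cdk1, the mitotic kinase, had 109.6, 99.8 and 96.7 CPM. Mitotic kinesin Klp61F had the widest spread of the 4, with 127, 65.2 and 74.7 CPM. Bub3, a spindle checkpoint gene, had 149, 123 and 144 CPM, and its exons overlap those of ppk19.

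Of the 15 measured temporal genes of neuroblasts, 14 had at least 1 CPM. Syp and Imp encode RNA-binding proteins that act against each other in neuroblasts, Imp early and Syp late. Syp had 2134, 2285 and 1837 CPM and 186 ± 20.3 CPM per kb, and Imp had 715, 522 and 463 CPM and 41.5 ± 9.67 CPM per kb. The ratio of Imp to Syp per kb was 0.276, 0.188 and 0.207 in ctrl 4, 5 and 6, so Syp was the higher in each pool. The late factor Eip93F had 208, 279 and 309.5 CPM, lowest in ctrl 4, and chinmo, an early factor, had 808, 676 and 621 CPM, highest in ctrl 4. br, which follows chinmo, had 1050.0, 1446 and 1295 CPM, lowest in ctrl 4, with exons shared with Mur2B. Of the first temporal series of the embryo, hb had 2.77, 2.84 and 3.12 CPM, Kr had 11.3, 12.5 and 13.4 CPM and nub had 9.97, 8.11 and 8.88 CPM, each within a narrow range. pdm2 of the same series had 2.25, 5.07 and 4.67 CPM, lowest in ctrl 4, and cas, its last factor, differed most, as given above. lin-28 had 0, 2 and 5 counts, under 1 CPM in every pool.

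Genes of ganglion mother cells and newborn neurons were abundant. All 9 had at least 1 CPM, as did 64.3% of all genes, and 8 lay above the all-gene median. None had an over 2-fold range, against 5.89% of all genes at 5 CPM or more, and a list of 9 is too short to tell from that share. heca, the headcase gene, had 2756, 2926 and 2647 CPM and 184 ± 9.33 CPM per kb, next to pros at 181 ± 13.1. lola, whose many isoforms steer neuron fate, had 1254, 1033 and 1153 CPM, and dap, a cell cycle inhibitor switched on before neurons exit the cycle, had 82.0, 67.6 and 65.1 CPM. The optic lobe, whose neuroepithelium still makes medulla neuroblasts at this age, was represented by all 23 measured genes of its list, at a lower median of 13.3 CPM per kb. The successive factors of medulla neuroblasts were all present: hth had 693, 560.4 and 678 CPM, ey had 51.2, 50.2 and 49.1 CPM, slp1 had 41.7, 26.6 and 32.8 CPM, D had 44.3, 50.8 and 84.1 CPM and tll had 40.7, 24.4 and 25.7 CPM. ey was the evenest and D was highest in ctrl 6. 4 of the 23 optic lobe genes had an over 2-fold range, against 5.89% of all genes at 5 CPM or more. The 4 included eya, with 41.0, 67.2 and 19.9 CPM, and bsh, with 4.50, 9.78 and 14.6 CPM.

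**Figure D3:**
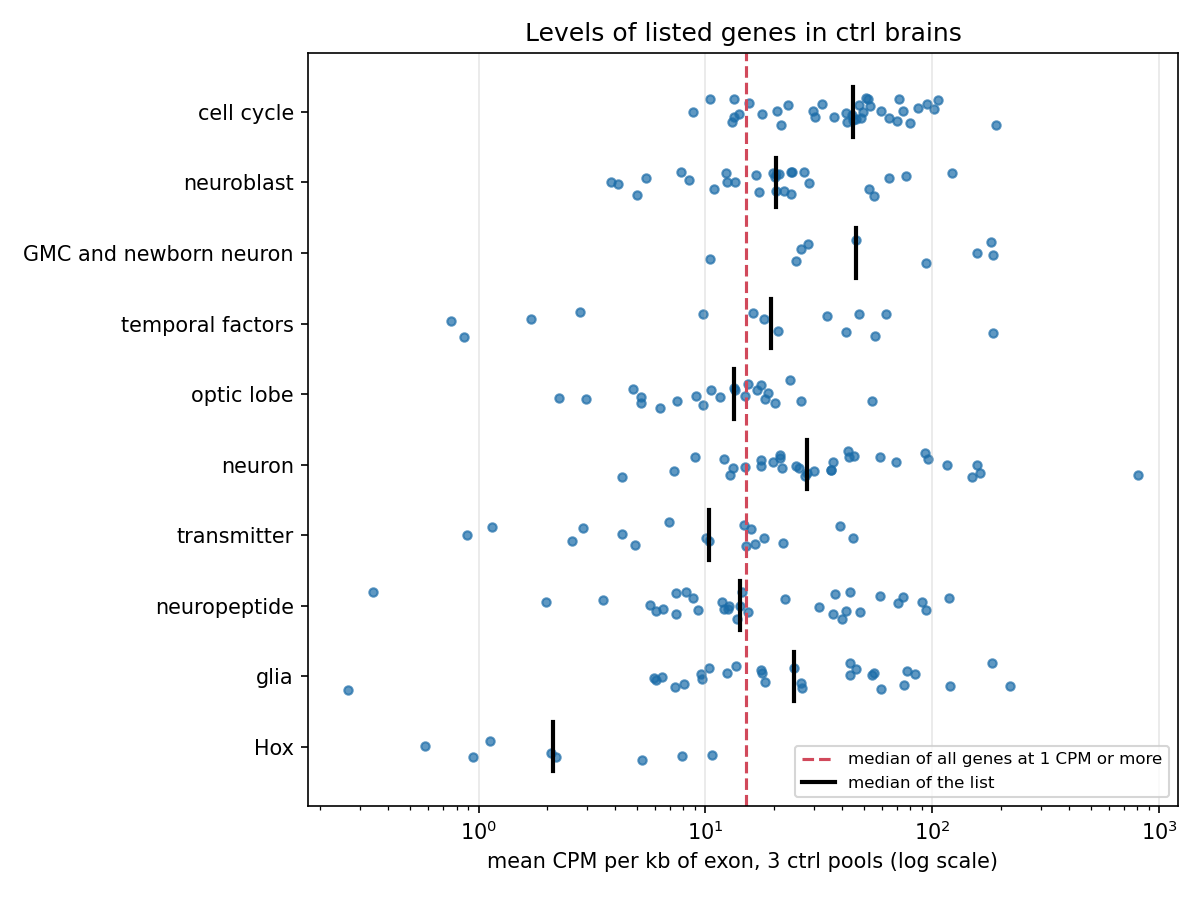
Mean CPM per kb over the 3 ctrl pools, on a log axis, for each gene at 1 CPM or more of 10 lists, with black bars at list medians and a dashed line at the median of all genes at 1 CPM or more (15.1). Cell cycle, ganglion mother cell and neuron genes lie mostly right of the line and Hox genes lie left of it.

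Neuronal genes held more counts than neuroblast genes and glial genes in every pool. All 33 genes of the neuron list had at least 1 CPM, with a median of 28.0 CPM per kb, and 26 lay above the all-gene median. Their sums were 13335, 14393 and 15128 CPM in ctrl 4, 5 and 6, and the ratio of the neuron to the neuroblast sum was 3.24, 3.82 and 4.03. 23 of the 33 were lowest in ctrl 4, as were 36.9% of all genes at 5 CPM or more. None of the 33 had an over 2-fold range, against 5.89% of all genes at that level. fax led with 806 ± 103 CPM per kb. nrv3, a neuronal sodium pump subunit, followed with 162 ± 4.92, fne, an ELAV-family RNA-binding protein, with 157 ± 18.4, and Appl, the fly amyloid precursor protein, with 149 ± 5.55 CPM per kb. Within 1 SD, fne overlaps both nrv3 and Appl, which do not overlap each other.

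Synaptic genes were expressed beside markers of young neurons. elav, the standard marker of neurons, had 255, 285 and 267 CPM and 25.1 CPM per kb. The synaptic vesicle genes nSyb and Syt1 had 343, 398 and 427 CPM for nSyb and 276, 310.1 and 338 CPM for Syt1, and brp, the scaffold of the active zone, had 227, 287 and 343 CPM. These 3 were lowest in ctrl 4 and highest in ctrl 6, but other synaptic genes were not. The syntaxin gene Syx1A and the calcium channel gene cac were highest in ctrl 4, with 160.4, 136 and 148 CPM for Syx1A and 220.1, 207 and 199.8 CPM for cac, and Csp, a vesicle chaperone, was highest in ctrl 5 with 256, 327 and 277 CPM. Over the whole list of 33, 8 genes were highest in ctrl 4, 8 in ctrl 5 and 17 in ctrl 6. Of all genes at 5 CPM or more, 36.6, 34.9 and 28.5% were highest in ctrl 4, 5 and 6. The cell surface genes Appl and Nrg had 943, 925 and 993 CPM for Appl and 754, 655 and 656 CPM for Nrg.

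Genes for acetylcholine, glutamate, GABA and amine transmitters were all found. All 17 measured members of the transmitter list had at least 1 CPM with a median of 10.4 CPM per kb, and 13 of the 15 at 5 CPM or more were lowest in ctrl 4, against 36.9% of all genes at that level. Gad1, the enzyme that makes GABA, had 163, 159.9 and 172 CPM and 44.8 ± 1.73 CPM per kb, the highest of the list and even between pools. VGlut, the vesicular glutamate transporter, had 169.9, 246 and 259 CPM, low in ctrl 4, and overlaps CG18641. VAChT and ChAT, which load and make acetylcholine, share exons and had 94.8, 119 and 137 CPM for VAChT and 44.1, 77.4 and 60.5 CPM for ChAT. Genes of amine neurons spanned much of the list per kb. Vmat, the vesicular amine transporter, had 18.1 ± 1.10 CPM per kb, Trhn, for serotonin, had 10.1 ± 2.49, and Tbh, for octopamine, had 10.4 ± 1.13. Tdc2, which makes tyramine, had 4.30 ± 0.389 CPM per kb, ple, for dopamine, had 1.15 ± 0.262, and Hdc, for histamine, had 0.888 ± 0.141. By pool, Trhn had 17.2, 27.9 and 21.0 CPM and ple had 3.46, 5.44 and 4.25 CPM, both lowest in ctrl 4.

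Neuropeptide genes were the most uneven of the brain lists. 33 of 35 had at least 1 CPM, and 14 of the 27 at 5 CPM or more had an over 2-fold range between pools, against 5.89% of all genes at that level. Proc, which encodes proctolin, was the highest per kb with 118 ± 18.2, followed by Pdf, the peptide of clock neurons, with 93.5 ± 33.3 and Capa with 90.0 ± 22.5 CPM per kb, which overlap within 1 SD. The 3 insulin-like peptide genes of the insulin-producing cells were low in ctrl 4 and highest in ctrl 5: Ilp2 had 20.7, 76.7 and 45.0 CPM, Ilp3 had 0.965, 18.1 and 13.1 CPM and Ilp5 had 3.74, 25.9 and 15.8 CPM. Peptide genes of other small groups of brain neurons were likewise lowest in ctrl 4 and highest in ctrl 5. Ptth, the brain hormone that starts ecdysone synthesis, had 8.40, 24.1 and 14.1 CPM, natalisin had 7.92, 48.2 and 30.4 CPM, and Ms, myosuppressin, had 26.7, 75.4 and 50.9 CPM. FMRFa, Nplp1 and Crz were highest in ctrl 4 instead, with 116, 53.02 and 35.8 CPM for FMRFa, 265, 202 and 132 CPM for Nplp1 and 34.4, 15.9 and 22.6 CPM for Crz. Eh, eclosion hormone, had 8.85, 15.0 and 2.92 CPM, lowest in ctrl 6. SIFa had 1.73, 11.4 and 6.78 CPM, but overlaps Start1, a ring gland gene with the same order of pools.

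Glial genes were expressed at levels like those of neuronal genes. All 29 had at least 1 CPM, with a median of 24.6 CPM per kb, and their sums were 3546, 3596 and 3359 CPM, a 1.07-fold range. Gs2, glutamine synthetase, was the highest with 220.3 ± 19.9 CPM per kb and 495, 534 and 445 CPM in ctrl 4, 5 and 6. Npc2a, a sterol carrier, had 182 ± 18.6 and alrm, the marker of astrocyte-like glia, had 119 ± 42.6 CPM per kb. repo, the homeodomain gene that marks nearly all glia, had 164, 105 and 144 CPM, lowest in ctrl 5, and its exons overlap CG7156. alrm went the other way, with 141, 284 and 188 CPM, and so did the GABA transporter gene Gat of astrocytes, with 89.7, 162 and 124 CPM. Genes of the blood-brain barrier and its septate junctions had no common order. nrv2 had 400.1, 235 and 260.0 CPM, moody, a receptor of the blood-brain barrier, had 97.1, 50.1 and 62.1 CPM, and the transporter gene Mdr65 had 358, 289 and 308 CPM, each highest in ctrl 4. The junction genes kune and Gli were highest in ctrl 5, with 39.7, 56.8 and 41.1 CPM for kune and a mean of 32.9 ± 6.83 CPM for Gli (SD, n = 3), and Nrx-IV was highest in ctrl 6 with 266, 281 and 305 CPM. gcm, which starts glial fate, was low at 17.5, 15.6 and 19.5 CPM.

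Genes tied to stage, position and sex formed 3 further lists. The ecdysone receptor gene EcR had 134, 181 and 167 CPM and its partner usp had 68.3, 68.5 and 70.7 CPM, and 11 of the 13 ecdysone response genes at 5 CPM or more were lowest in ctrl 4, against 36.9% of all genes at that level. The early response genes Eip74EF and Eip75B had 107, 203 and 146 CPM for Eip74EF and 331, 495 and 439 CPM for Eip75B, lowest in ctrl 4, and ftz-f1, a gene of the time after the hormone pulse, had 45.6, 25.6 and 24.7 CPM, highest in ctrl 4. Hox genes, which mainly pattern the ventral nerve cord rather than the brain lobes, were low, with a list median of 2.14 CPM per kb, led by abd-A with 10.6 ± 0.554 CPM per kb and 58.5, 61.1 and 55.1 CPM. Ubx had 26.0, 21.3 and 20.2 CPM and lab, the most anterior one, had 1.45, 2.07 and 1.79 CPM. The larvae are labelled female. Sxl, the female switch gene, had 367, 371 and 384 CPM and lncRNA:roX2, a male dosage compensation RNA, had 0, 2 and 4 counts. Counts per gene do not separate splice forms, so the level of Sxl was not read as a sign of sex. lncRNA:roX1 was not absent, with 452, 285 and 276 CPM, and overlaps ec.

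Genes of chaperones and the heat shock response had mixed orders between pools. Hsp83, the fly Hsp90, had 2216, 1050.0 and 1051 CPM, over 2-fold higher in ctrl 4. The small heat shock genes Hsp23 and Hsp27 had 1163, 2182 and 2124 CPM for Hsp23 and 1106, 1523 and 1677 CPM for Hsp27, both lowest in ctrl 4. Hsp68 had 20.5, 7.51 and 16.1 CPM, and the 6 listed copies of Hsp70, which are near-identical so that single values are uncertain, lay between 12.5 and 14.5 CPM in ctrl 4, 3.45 and 6.37 in ctrl 5 and 6.04 and 8.03 in ctrl 6. 8 of the 17 listed genes, which include the heat shock factor gene Hsf, had an over 2-fold range, against 5.89% of all genes at 5 CPM or more. These were the 6 Hsp70 copies, Hsp68 and Hsp83, and the near-identical copies are not 6 independent measures. With those copies included, 12 of the 17 were highest in ctrl 4, as were 36.6% of all genes at that level. Lowest in ctrl 5 were 12 of the 17, against 38.9% of all genes. Hsc70-3, the chaperone of the endoplasmic reticulum, was even at 825, 852 and 854 CPM.

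Markers of tissues outside the brain differed far more between pools than brain markers. Over lists of other tissues, 47 of 76 genes at 5 CPM or more had an over 2-fold range, against 23 of 169 genes of brain lists and 5.89% of all genes. The ring gland list had the widest range, with summed levels of 160.4, 3000.5 and 1545 CPM in ctrl 4, 5 and 6, and 9 of its 10 genes at 5 CPM or more had an over 2-fold range. The 18.7-fold range of the sum was 1.94-fold without ctrl 4 and 9.63-fold without ctrl 5. phtm (X:18685766-18688433), an ecdysone synthesis enzyme, had 3 counts in ctrl 4 where the others had 1218 (ctrl 5) and 504 CPM (ctrl 6). spok, of the same pathway, had 1 count in ctrl 4, against 567 and 284 CPM in the other pools. sad had 0.965, 616 and 337 CPM and dib had 0.804, 55.1 and 28.0 CPM, and jhamt, which makes juvenile hormone, had 1 count in ctrl 4 and 37.8 and 15.5 CPM in the other pools. Ctrl 4 was thus under 1 CPM for all 5 of these defining genes of the gland. Akh, the hormone of the corpora cardiaca, was less extreme with 30.7, 72.3 and 104 CPM. mld, a zinc finger gene of ecdysone synthesis, was highest in ctrl 4 with 94.3, 64.1 and 80.7 CPM.

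Blood cell markers were highest in ctrl 5. The hemocyte list summed to 1281, 2491 and 884 CPM, a 2.82-fold range that was 1.45-fold without ctrl 5. 9 of its 14 genes at 5 CPM or more had an over 2-fold range, against 5.89% of all genes. 11 of the 14 were highest in ctrl 5, as were 34.9% of all genes at that level. PPO1 and PPO2, the prophenoloxidases of crystal cells, had 3.06, 366 and 6.31 CPM for PPO1 and 13.1, 445 and 13.7 CPM for PPO2, both high in ctrl 5 alone. Hml, a hemocyte clotting gene, had 8.60, 239 and 30.8 CPM, and Pxn, peroxidasin, had 19.5, 151 and 35.8 CPM. The basement membrane genes Col4a1, vkg and LanA differed less between pools, with 403, 453 and 275 CPM for Col4a1, 282, 252 and 171 for vkg and 442, 246 and 222 for LanA. NimC4 and NimC2 were under 1 CPM in every pool.

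Genes of oenocytes, cells of the body wall that make lipids, were high in ctrl 5 alone. Cyp4g1, the enzyme that makes cuticular hydrocarbons, had 19, 34719 and 30 counts, which is 0.764, 1409 and 1.17 CPM in ctrl 4, 5 and 6, the highest CV of any gene at 5 CPM or more (173%). FASN2, a fatty acid synthase, had 0.603, 81.0 and 0.234 CPM and FarO, a fatty acyl reductase of oenocytes, had 0.362, 55.7 and 0.467 CPM. The list of oenocyte, trachea and cuticle genes summed to 458, 1891 and 436 CPM, a 4.34-fold range that was 1.05-fold without ctrl 5. Larval cuticle genes had the opposite pattern: Lcp1 had 47.8, 5.60 and 61.7 CPM, Lcp4 had 42.6, 0.609 and 21.2 CPM and Lcp3 had 2.94, 0.690 and 36.4 CPM, each lowest in ctrl 5. The tracheal genes trh and btl were even, with means of 24.0 ± 3.72 and 5.58 ± 0.636 CPM (SD, n = 3). Gasp, a chitin-binding gene of the tracheal lining, was not, with 38.2, 99.9 and 42.1 CPM, nor was the chitin-binding gene obst-A, with 8.73, 22.2 and 15.8 CPM, both highest in ctrl 5.

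Most fat body, gut and salivary gland genes were highest in ctrl 4. The larval serum protein genes Lsp1alpha, Lsp1beta and Lsp2 had 81.8, 8.72 and 3.51 CPM for Lsp1alpha, 178, 14.1 and 9.78 CPM for Lsp1beta and 15.8, 0.974 and 1.40 CPM for Lsp2. The fat body list summed to 759.6, 347 and 292 CPM, a 2.60-fold range that was 1.19-fold without ctrl 4, while the lipid carrier genes apolpp and Mtp were even, at 213, 224 and 189 CPM for apolpp and 50.9, 49.7 and 52.4 CPM for Mtp. deltaTry, a gut trypsin of a family with near-identical copies, had 17.2, 1.62 and 3.43 CPM, and the list of gut genes summed to 38.6, 3.94 and 8.06 CPM. Sgs3, a salivary glue gene, had 45.3, 17.9 and 11.7 CPM. Muscle genes stayed level in sum, at 908, 863 and 932 CPM, mostly through Tm1 and Act87E, whereas the muscle myosin gene Mhc had 17.4, 4.50 and 7.75 CPM. 11 of the 14 muscle genes at 5 CPM or more were lowest in ctrl 5, as were 38.9% of all genes at that level. The imaginal disc list held 9 genes at 5 CPM or more. Of these, 5 were highest in ctrl 4 and 4 in ctrl 5, against 36.6 and 34.9% of all genes. 3 of the 9 had an over 2-fold range, against 5.89% of all genes. These were the eye disc genes gl, ato and chp, all highest in ctrl 5. ato had 3.54, 9.90 and 5.69 CPM and chp had 11.5, 19.1 and 4.67 CPM. sev, the highest of that list per kb, had 135, 130.0 and 84.8 CPM, highest in ctrl 4. Germline genes stayed low at sums of 11.9, 19.5 and 14.7 CPM. Markers of these tissues thus differed by pool, and their part in the brain values above was not tested.

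**Figure D4:**
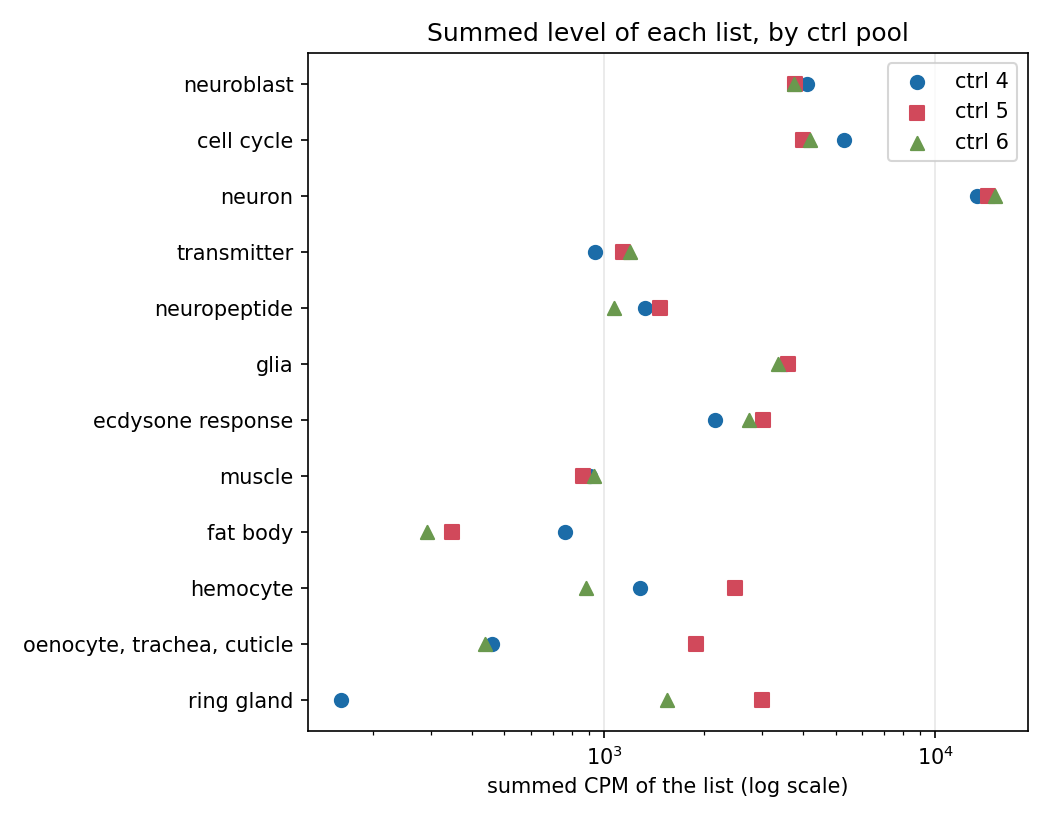
Summed CPM of the genes of each of 12 lists, on a log axis, with 1 point for each ctrl pool. The lists from neuroblast to ecdysone response have at most a 1.40-fold range, whereas the ring gland list has 160.4 CPM in ctrl 4 and 3000.5 CPM in ctrl 5.

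The spread over all genes was small next to these. Among 7822 genes with a mean of at least 5 CPM the median CV was 11.7%, with a middle range of 7.17 to 18.4%, where counting error alone would give a median of 2.99%. 461 genes (5.89%) had an over 2-fold range, 144 (1.84%) an over 4-fold range and 81 an over 10-fold range. Of the 461, 191 were highest in ctrl 4, 222 in ctrl 5 and 48 in ctrl 6. Of the 144, 34 were highest in ctrl 4, 104 in ctrl 5 and 6 in ctrl 6. Over all 7822 genes, 36.6, 34.9 and 28.5% were highest in ctrl 4, 5 and 6. The share over 2-fold was 22.5% from 5 to under 10 CPM, 5.58% from 10 to under 50 CPM and 2.90% from 50 to under 200 CPM, so the low genes varied most. It was 5.77% over the 156 genes of at least 1000 CPM, among them cherub, RpL41, Hsp83 and the rRNA pseudogenes. Without ctrl 4 the count over 2-fold was 173, without ctrl 5 it was 217 and without ctrl 6 it was 395. Over 4-fold the counts were 62, 55 and 144. The common biological coefficient of variation over 9365 genes was 0.243.

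The 25 genes with the highest CV were almost all low in 2 pools and high in the other. 16 were highest in ctrl 5, 8 in ctrl 4 and 1 in ctrl 6, against 34.9, 36.6 and 28.5% of all genes at 5 CPM or more. Beside Cyp4g1, FASN2, FarO, PPO1, PPO2 and lz, those of ctrl 5 included Lectin-galC1, a galactose-binding lectin, with 0.0402, 150.2 and 8.03 CPM, CG15531 with 0.0402, 32.4 and 0.0779 CPM and CG6660 with 0.161, 52.1 and 0.390 CPM. The 8 of ctrl 4 were led by serine proteases of the midgut: Jon99Cii had 70.9, 0.325 and 0.467 CPM, Jon66Ci had 24.7, 0.122 and 0.117 CPM and Jon99Fii had 22.2, 0.0406 and 0.156 CPM. All 6 Jon genes at 5 CPM or more had an over 2-fold range, against 5.89% of all genes at that level. Since the Jon99 genes are near-identical copies, their single values are uncertain. Ctrl 6 held 1 of the 25, Lcp3, and the next most variable genes highest there were Lcp65Ab1 and Lcp65Ab2, near-identical copies at 2.98, 0.0811 and 19.4 CPM each, then Lcp2 with 21.5, 1.22 and 30.7 CPM, Lcp1 and CG14075 with 29.2, 104 and 146 CPM. Ance, a peptidase, came after these with 106, 216 and 389.7 CPM.

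At the other end, 111 of the 3610 genes at 50 CPM or more varied less than counting error alone would give. Nsun2, an RNA methyltransferase gene, had 58.7, 58.7 and 58.7 CPM, Akr1B, an aldo-keto reductase, had 115, 114 and 114 CPM, and Fer2LCH, a ferritin subunit, had 394, 396 and 394 CPM. Others of the 10 with the lowest CV were CG2247, roq, Dis3l2, UQCR-C2 of the respiratory chain, wap, RtGEF and nSMase. With 3 pools, a CV this low rests on few values and cannot rank these genes among their neighbours.

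**Figure D5:**
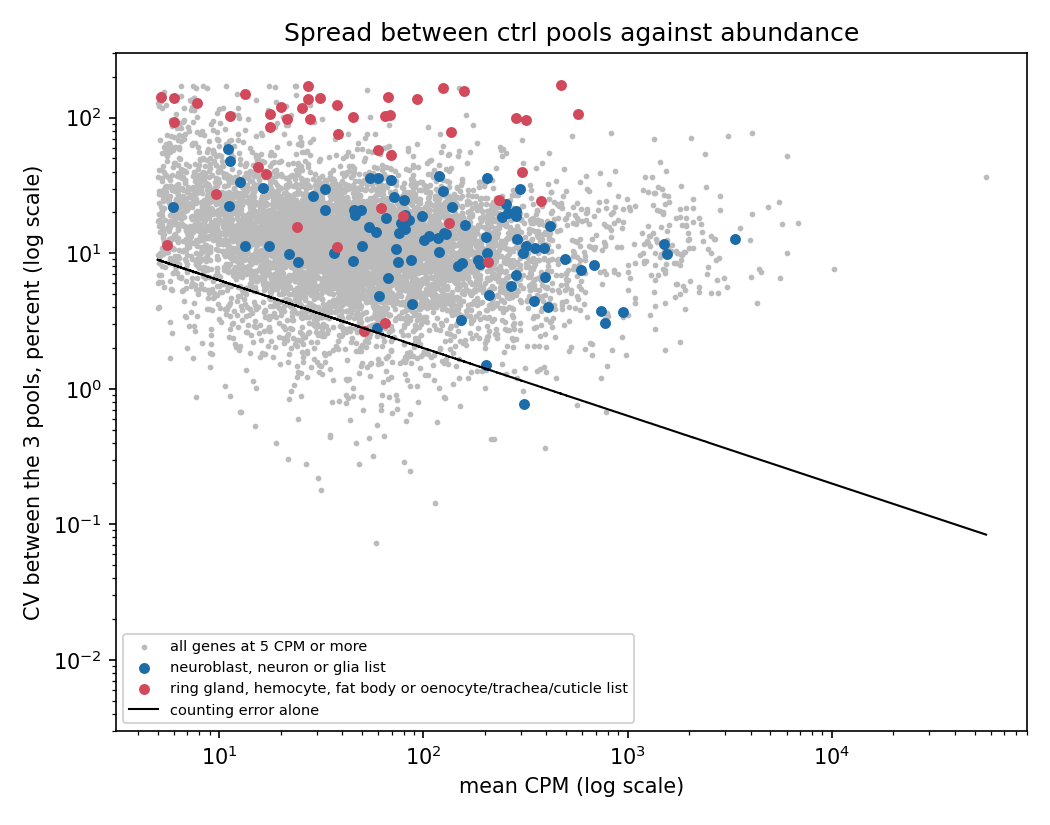
CV between the 3 ctrl pools in percent against mean CPM, both on log axes, with 1 point for each of the 7822 genes at 5 CPM or more and a line for the CV of counting error alone. Genes of the neuroblast, neuron and glia lists (blue) lie within the cloud, while many of the ring gland, hemocyte, fat body and oenocyte, trachea and cuticle lists (red) lie near its top.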

How the data were processed

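The values deposited by the authors are raw counts, 1 column for each library. The labels' protocols name poly(A) selection and a NEBNext Ultra II kit, which keeps no strand information, with 13 amplification cycles. The submitters' processing notes name Trim Galore, STAR 2.7.10a, featureCounts and dm6. The sources used here do not give their settings, the annotation release or the handling of multiply mapping reads. Counts of genes with shared exons cannot be told apart. Beside genes marked as overlapping in the text, this holds for mt:CoIII, RpL23, pros, hth, Smox, SREBP, Dp, E2f1, Myb, usp, ftz-f1, grh, insc, Klp61F, heca, lola, elav, Trhn, Hdc, Ptth, natalisin, Hsp27, Hsp68, Hsp83, dib, mld, sad, Pxn, FarO, btl, trh, apolpp, deltaTry, Nsun2, Syx1A, NimC2, Tm1, UQCR-C2, nSMase, wap and Fer2LCH.

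CPM are counts over library sizes scaled by TMM (edgeR 4.0.16 in R 4.3.3), with factors from all 6 libraries. The 2 gene models used for length were the union of exons and, as another setting, the longest transcript, from an Ensembl annotation of BDGP6, the assembly dm6 names. It gave symbols and lengths for 14074 genes, and 76 kept their identifier. 4042 genes share exon bases with another gene. CV was computed for genes with a mean of at least 5 CPM. The scaling, gene length, filters and left-out pools were varied as other settings. The spread computation was tested on simulated data.

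Genes named are the 20 highest by CPM and by CPM per kb, the 25 highest transcription factors, up to 6 per list with defining members, and the 25 highest and 10 lowest by CV. Members of the 23 lists were named by hand, and 11 older names were matched as synonyms. Some lists hold genes that other tissues express. The members and lists were chosen with earlier results of these data known. Other genes were named after their values were seen. The 3 bub3-i libraries enter only the scaling factors and are not described here.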

Additional observations from a re-analysis of the deposited data

How the results depend on the processing

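No paired analysis was possible because the 3 libraries are 1 group and no test was made. Other scalings (TMM on the ctrl libraries alone, RLE, plain totals and totals without mitochondrially encoded genes) left the counts and folds given within 1.5 times their value. Without mitochondrially encoded genes in the total, the list sums were higher by more than the SD between pools, at 4149 CPM for neuroblast, 15284 for neuron and 3742 for glia genes on average, against 3878, 14285 and 3500.3. Cell cycle genes highest in ctrl 4 numbered 31 or 32 of 37 under the 4 scalings, and neuroblast genes 19 of 28.

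The count of genes over 2-fold depends on the filter: 4877 with no filter, 1058 at 1 CPM and 199 at 20 CPM, against 461 at 5 CPM. Over 4-fold they numbered 3066, 343 and 57, against 144, and the median CV was 20.5% with no filter, against 11.7%. Leaving out 1 pool each moved the counts too. Genes over 2-fold numbered 173 without ctrl 4, 217 without ctrl 5 and 395 without ctrl 6, and genes over 4-fold 62, 55 and 144. With 1 pool left out, the range of the ring gland sum was 1.94 to 18.7-fold, of the hemocyte sum 1.45 to 2.82-fold, of the fat body sum 1.19 to 2.60-fold and of the oenocyte, trachea and cuticle sum 1.05 to 4.34-fold. Mean levels of 224 single named genes were also compared under the other scalings. Those that moved by more than the SD between pools numbered 10 with TMM on the ctrl libraries alone and 10 with RLE. They numbered 12 with plain totals and 39 without mitochondrially encoded genes. Leaving out 1 of 3 pools cannot move a mean by more than that SD, so this rule says nothing about left-out pools. With 3 pools in 1 group no p-value was computed, ranks by spread rest on 3 values each, and values under about 0.12 CPM rest on 3 counts or fewer.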

Other observations

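Chromosome 4, the smallest, was described separately, since it is covered by its own chromatin system. Of its 79 protein-coding genes, 76 (96.2%) had at least 1 CPM, against 70.5 to 74.8% on the X and the arms of the large autosomes. The median over those genes was 29.5 CPM per kb, against 14.5 to 16.3 CPM per kb for the X and the other arms. By pool it was 25.8, 32.2 and 33.1 CPM per kb in ctrl 4, 5 and 6, lowest in ctrl 4. Among its genes, pan, the factor of Wnt signalling, had 149.9, 283 and 226 CPM, lowest in ctrl 4, while ey had 51.2, 50.2 and 49.1 CPM, even between pools.

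Although the larvae are labelled female, 1 of the 4 Y-linked coding genes in the table reached 1 CPM, FDY with 137, 120.0 and 135 CPM. The other 3 had between 0 and 6 counts in each pool, and some Y-linked pseudogenes also had counts. FDY is a recent copy of vig2 on the third chromosome, which had 583, 459 and 563 CPM, so reads of vig2 may be shared between them, and their part in the FDY value was not tested. The white gene w, of which the genotype carries a mutation, had 43.0, 99.0 and 105 CPM, lowest in ctrl 4. Transgenes often carry a working copy of w, and the table does not tell such reads from those of the mutated locus. These genes were named after their values were seen.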
